A study of Mus musculus with 2 samples.

Results

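Small nucleolar RNAs and small Cajal body RNAs were compared between X63/0 (X63-Ag8.653) mouse plasmacytoma cells given 30 mM cycloleucine for 3 h and untreated cells of the same line. The members were the features of the deposited gene table whose symbol starts with Snora, Snord or Scarna and that had at least 20 gene reads summed over both libraries. Of 126 such features in a table of 43346, 41 reached that number. They were thus chosen by their summed reads. Near the threshold a member can pass through the library where it is higher, such as Snora70 with 7 cycloleucine and 15 untreated reads. They were 23 of 79 box C/D features, 12 of 38 box H/ACA features and 6 of 9 Cajal body features. Cycloleucine inhibits the enzyme that makes S-adenosylmethionine, the methyl donor of the cell, and the series concerns transcript differences when that donor is lowered. Each group had 1 library in the files analysed here, of total RNA depleted of ribosomal RNA and sequenced on an Ion Proton. The design text speaks of a triplicated experiment, and how the triplicate relates to these libraries is not stated. The cycloleucine library held 31951946 gene reads and the untreated library 27127865. The differences below compare 2 libraries and could not be set against a spread between replicates, so none is tested. All 8 plasma cell markers examined were at 1 RPKM or more in both libraries, while none of 5 T and NK cell and 4 fibroblast markers reached 1 RPKM. Cd79b and Ms4a1, known from B cells, and Cd68, known from myeloid cells, also reached 1 RPKM in both.

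Box C/D RNAs carry a C box and a D box, bind fibrillarin and mostly guide ribose methylation of ribosomal RNA, a reaction that uses S-adenosylmethionine. Box H/ACA RNAs end in an ACA box, bind dyskerin and mostly guide the change of uridine to pseudouridine, which needs no methyl donor. A few of both kinds take part in cleavage of the ribosomal RNA precursor instead, and Cajal body RNAs guide the same modifications on spliceosomal RNAs. Most are cut out of introns of host genes, while some, among them U3, U8 and U13, have promoters of their own.

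The sequences shown first belong to the members with the most reads and to box C/D members whose counting interval of the difference lay outside no change. They are GENCODE M21 transcripts on GRCm38, the assembly that mm10 names, and lie at the positions the table gives. Of Scarna2 only the last 100 bases are shown. Capitals mark the first TGATGA (C box) and the last CTGA (D box) in box C/D members and in Scarna2, read on the RNA strand, and the ACA of a terminal ACANNN in Snora24 and Scarna13. The letters match the motif only and do not show that a box is used.
Snord118: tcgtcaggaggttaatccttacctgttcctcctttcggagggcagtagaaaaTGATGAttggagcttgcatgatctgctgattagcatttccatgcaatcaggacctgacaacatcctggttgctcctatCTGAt
Snord104: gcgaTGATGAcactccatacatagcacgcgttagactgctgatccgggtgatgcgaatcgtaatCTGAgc
Snord60: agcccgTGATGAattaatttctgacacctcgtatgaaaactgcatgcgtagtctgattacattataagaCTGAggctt
Snord12: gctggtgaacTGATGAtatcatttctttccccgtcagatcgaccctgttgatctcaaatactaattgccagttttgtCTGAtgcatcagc
Snord87: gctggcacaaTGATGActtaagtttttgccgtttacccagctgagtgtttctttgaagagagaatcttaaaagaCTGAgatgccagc
Snord83b: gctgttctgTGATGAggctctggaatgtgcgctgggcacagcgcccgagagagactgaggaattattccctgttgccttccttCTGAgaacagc
Snora24: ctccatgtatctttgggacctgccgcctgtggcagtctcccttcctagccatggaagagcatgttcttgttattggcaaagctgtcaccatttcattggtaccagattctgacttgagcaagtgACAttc
Scarna13: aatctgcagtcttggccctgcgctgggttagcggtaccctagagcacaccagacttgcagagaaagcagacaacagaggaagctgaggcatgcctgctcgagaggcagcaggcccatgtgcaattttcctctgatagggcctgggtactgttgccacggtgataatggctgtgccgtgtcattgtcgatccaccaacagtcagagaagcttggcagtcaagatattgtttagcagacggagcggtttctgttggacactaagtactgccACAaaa
Scarna2: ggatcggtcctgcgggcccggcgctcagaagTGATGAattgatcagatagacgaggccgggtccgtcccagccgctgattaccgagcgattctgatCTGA
Snord118 is at chr11:69073427-69073561 and Snord104 at chr11:106500993-106501062, both on the plus strand. Snord60 is at chr17:24528476-24528553 and Snord12 at chr2:167065276-167065365, also on the plus strand. On the minus strand, Snord87 is at chr1:9942463-9942549 and Snord83b at chr15:80078498-80078591. Snora24 at chr3:123507937-123508066, Scarna13 at chr12:105031075-105031349 and the shown end of Scarna2 at chr3:108554338-108554437 are on the minus strand as well.

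The class names were checked against these letters. A TGATGA followed by a CTGA was found in 18 of the 23 box C/D members and in none of the 11 box H/ACA members with a matched transcript. A terminal ACANNN was found in 9 of those 11 and in 0 of 23 box C/D members. Among 23328 other GENCODE transcripts of 60 to 450 bases, 8.37% held a TGATGA before a CTGA and 1.79% ended in ACANNN. Of the 6 Cajal body members, 4, Scarna2, Scarna6, Scarna10 and Scarna17, held the C/D pair and 1, Scarna13, the terminal ACANNN. The box C/D members were 65 to 238 bases long with a median of 78, the box H/ACA members 121 to 205 with a median of 136.5, and the Cajal body members 79 to 414 with a median of 270.

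Uniquely placed reads split the members into 2 kinds. In 34 members that overlap another feature of the table, mostly a host gene, 0 reads were counted as unique in either library. In the 7 members that overlap none, the unique share over both libraries ran from 59.4% to 99.7%. These were Scarna2 (99.7%), Snora24 (99.4%), Scarna13 (99.3%), Snord104 (99.2%), Snord13 (98.2%), Snord118 (85.8%) and Scarna17 (59.4%). The unique share thus followed overlap between features here, and a value of 0 does not show that a sequence has copies elsewhere in the genome. Among other features without an annotated transcript and with at least 20 reads, 158 of 250 that overlap another feature had no unique read, against 35 of 660 that overlap none. By class, the unique share was 67.9% of cycloleucine and 67.1% of untreated reads in box H/ACA, 73.1% and 72.9% in box C/D, and 98.3% and 98.3% in Cajal body members.

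How reads in 2 overlapping features were shared out is nowhere stated in the sources used here, and the counts show that they were not all given to both. Snord60 lies wholly inside Rab26os, yet in the cycloleucine library it had 187 reads and Rab26os 129. In 8 of 26 host genes, the members inside the host had more reads in a library than all introns of the host together. That count does not bear on the sharing where members lie within host exons, since shared reads would then be exon reads. GENCODE places 18 of the 34 members wholly within an exon of some transcript of their host. For 13 no base was found in such an exon. Among these are Snora17 and Snora74a, whose hosts were not matched in GENCODE, so their place is unknown. Hspa8, the gene of a constitutive chaperone, had 9 intron reads in the cycloleucine library and 4 in the untreated library, against 46 and 54 reads of its members Snord14c, Snord14d and Snord14e. These 3 members lie wholly within such exons, so reads shared with Hspa8 would be among its 63638 and 42378 exon reads. Features on the opposite strand also cover 4 members, Rab26 over Snord60, Tlcd1 over Snord42a and Gm17300 over Snora73a and Snora73b, and reads of both strands cannot be told apart where strand was not used. The reads of the 34 overlapping members may thus be a part of those that fell on them, and their levels below are the deposited ones.

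The levels of the 2 kinds were far apart. RPKM, gene reads per kilobase of feature and per 1000000 gene reads of the library, had a median of 323 in the cycloleucine library and 290 in the untreated library over the 7 members that overlap none. Over the 34 overlapping members the medians were 9.55 and 7.43. The 7 held 12833 of 14461 member reads in the cycloleucine library and 9320 of 10507 in the untreated library. The 5 highest levels in the cycloleucine library were, in order, Snord118, Scarna2, Snora24, Snord104 and Snord13, and in the untreated library Scarna2, Snord104, Snora24, Snord118 and Scarna13. Snord118 thus stood first in the cycloleucine library, while Scarna2, Snord104 and Snora24 stood above it in the untreated one.

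**Figure D1:**
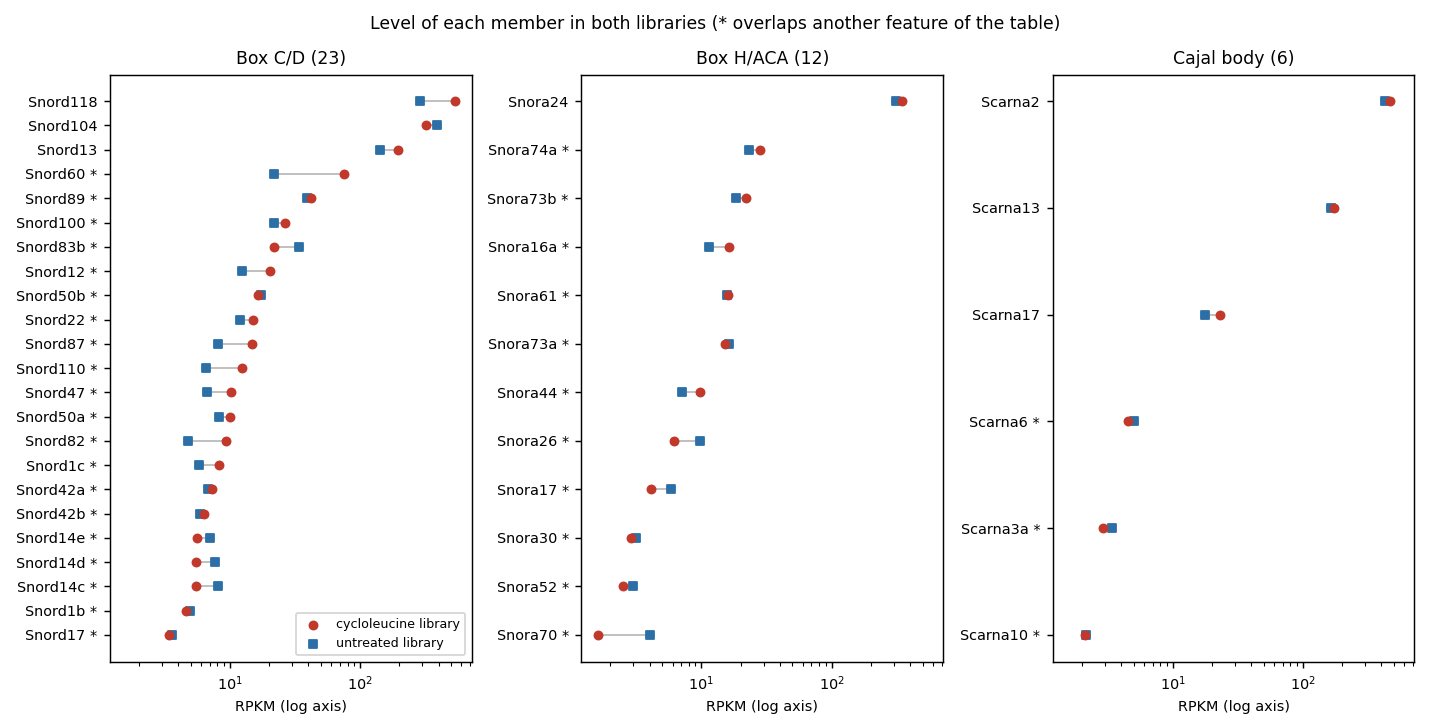
RPKM of each of the 41 members on a log axis, by class, with the cycloleucine library as red circles and the untreated library as blue squares, 1 library each. Members marked with an asterisk overlap another feature and lie at 75.03 RPKM or less in both libraries, while Snord118, Snord104, Snord13, Snora24, Scarna2 and Scarna13 lie at 141 or more.

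Snord118, which encodes U8, had the clearest difference of the well-counted members. U8 is known from frog oocytes for its part in making the large ribosomal subunit RNAs, and mutations of the human gene cause a brain disease with calcifications and cysts. It had 2314 reads in the cycloleucine library and 1061 in the untreated library, or 536 and 290 RPKM, and was 1.85-fold higher (95% counting interval 1.72 to 1.99). Its log2 change was 0.89, just short of 2-fold. Uniquely placed reads, 1979 and 916, gave 1.88-fold. In bulk RNA, more cells with the RNA and more RNA per cell cannot be told apart. The neighbouring gene Tmem107 had 206 and 182 gene reads and a log2 change of -0.16. Of 7031 features with at least 1000 reads, 1.28% were at least 1.5-fold higher, and of the 121 of these without an annotated transcript 15.7% were. Snord118 was the 1 of 6 members with at least 1000 reads that reached 1.5-fold higher, a share near that of such features without a transcript. None of the 6 was 1.5-fold lower, against 0.697% and 4.13% of the same features.

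Snord13, which encodes U13, was higher as well. In human cells U13 pairs with the small subunit ribosomal RNA and is needed for acetylation of a cytidine there. It had 653 reads in the cycloleucine library and 398 in the untreated library, or 197 and 141 RPKM, a log2 change of 0.48 and a ratio of 1.39 (1.23 to 1.58). Its unique reads, 646 and 386, gave 1.45-fold. The third box C/D member that overlaps no feature, Snord104, was lower, with 722 and 737 reads, 323 and 388 RPKM and a log2 change of -0.27. Its ratio was 0.832 (0.750 to 0.923), and 0.856 from unique reads. The 3 box C/D members with unique reads thus did not move together.

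U3, the most abundant RNA of the same family, appears in the table under another symbol and is no member. It was looked up after these values were seen. Rnu3a had 58858 reads in the cycloleucine library and 25910 in the untreated library, 8608 and 4463 RPKM, and was 1.93-fold higher (1.90 to 1.96), with 62.0% of its reads unique. The 4 features Rnu3b1 to Rnu3b4, which had 0% unique reads, had log2 changes from -0.00025 to 0.14. Among other short noncoding RNAs looked up, higher values were not particular to this family. Rnu11_1 had a ratio of 1.602 (1.371 to 1.876), Rnu12 1.499 (1.368 to 1.644) and Rpph1 1.388 (1.380 to 1.396). Their unique shares were 2.51%, 70.9% and 89.3%. Rnu5g and Rnu1b6 were both at 1.14, Rnu1b2 at 1.07, Terc at 1.06 and Rmrp at 1.03.

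Of the 20 box C/D members that overlap another feature, 13 lay above 0 and 7 below. The counting interval lay wholly above 1 in 3, Snord60, Snord12 and Snord87, and wholly below in 1, Snord83b. Across all features with at least 20 reads, 19.9% had an interval wholly above 1 and 16.4% one wholly below. These shares depend on depth, and the median was 564 reads over all those features but 39 over the 20 members. Snord12, in the noncoding gene 1500012F01Rik (Zfas1), had 58 reads in the cycloleucine library and 30 in the untreated library, a ratio of 1.64 (1.04 to 2.64). Snord87, in the noncoding gene Snhg6, had 41 and 19 reads and a ratio of 1.83 (1.04 to 3.34). Snord83b, in the ribosomal protein gene Rpl3, had 65 and 86 reads and a ratio of 0.642 (0.458 to 0.896). All 4 have 0 unique reads, so these ratios rest on how the reads were shared out.

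Snord60 was the 1 box C/D member at least 2-fold higher, where 1.69% of all features with at least 20 reads, 3.15% of those with fewer than 500 of them and 8.1% of those without an annotated transcript were. It had 187 reads in the cycloleucine library and 46 in the untreated library, 75.03 and 21.7 RPKM, a log2 change of 1.78 and a ratio of 3.45 (2.49 to 4.88). It lies within an exon of Rab26os on the same strand and within the span of Rab26 on the other, and 0 of its reads were unique. Rab26os had 129 reads in the cycloleucine library and 216 in the untreated library, a ratio of 0.507 (0.404 to 0.634). Snord60 and Rab26os together had 316 and 262 reads, a ratio of 1.02 (0.867 to 1.21), and all 3 features 521 and 401, a ratio of 1.10 (0.967 to 1.26). Snord60 took 59.2% of the reads of the pair in the cycloleucine library (exact binomial interval 53.5% to 64.6%), against 17.6% in the untreated library (13.2% to 22.7%). The sums did not differ beyond counting error. Reads of Rab26os counted as intron, 104 and 152, were fewer in the cycloleucine library, as were those counted as exon, 25 and 64. Whether the counts used the GENCODE exon that holds Snord60 is not stated. A higher level of Snord60 beside a lower one of Rab26os and another split of the same reads cannot be told apart here.

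**Figure D2:**
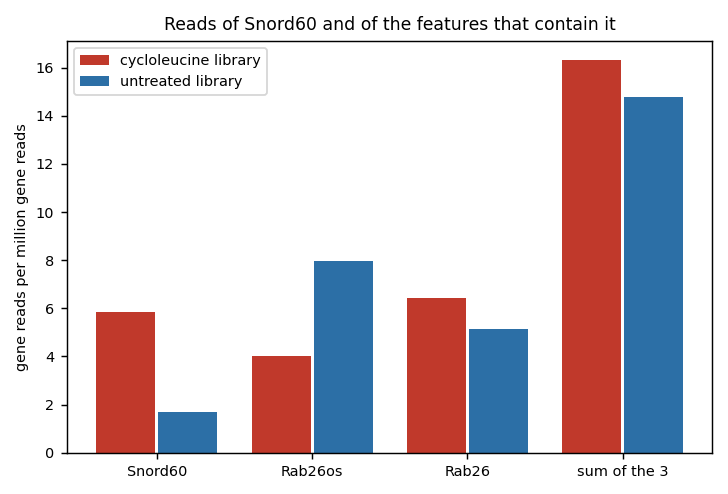
Gene reads per 1000000 gene reads of Snord60, Rab26os, Rab26 and their sum, with the cycloleucine library as the left red bar and the untreated library as the right blue bar, 1 library each. Snord60 is at 5.85 and 1.70 and Rab26os at 4.04 and 7.96, while the sum is at 16.3 and 14.8.

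The other overlapping box C/D members had few reads and wide intervals. Snord82, in the nucleolin gene Ncl, had 21 reads in the cycloleucine library and 9 in the untreated library and a ratio of 1.98 (0.870 to 4.91). Snord110, in the gene of the box C/D protein Nop56, had 27 and 12 reads and a ratio of 1.91 (0.936 to 4.14). Snord47, in the noncoding gene Gas5, had 25 and 14 reads and a ratio of 1.52 (0.758 to 3.16). Each stood at least 1.5-fold higher, but the counting error of each includes no change. The 3 copies of U14 in Hspa8, an RNA known from yeast for cleavage leading to the small subunit, all lay below 0, at -0.57 for Snord14c, -0.49 for Snord14d and -0.32 for Snord14e in log2. Together they had 46 reads in the cycloleucine library and 54 in the untreated library, a ratio of 0.723 (0.477 to 1.09). Snord22 (U22), which in frog oocytes acts in small subunit processing, had 60 and 41 reads and a log2 change of 0.31. Snord50a and Snord50b, both in Snhg5, were at 0.28 and -0.08.

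Snord89 and Snord100 were the best counted of the rest. Snord89, in the gene model Gm15832, had 146 reads in the cycloleucine library and 117 in the untreated library and a log2 change of 0.08. Snord100, in the ribosomal protein gene Rps12, had 62 and 44 reads and one of 0.26. The remaining 5 box C/D members lay between -0.10 and 0.49, Snord1b at the low end and Snord1c at the high end, both in 1810032O08Rik. Snord17 in Snx5 was at -0.06, and Snord42a and Snord42b in Rpl23a at 0.08 and 0.11.

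Over the class, box C/D members summed to 4574 reads in the cycloleucine library and 2786 in the untreated library, a ratio of 1.39 (1.33 to 1.46). Snord118 alone held 45.9% of these reads, and the ratio was 1.11 (1.04 to 1.19) without it and 1.03 (0.955 to 1.11) without Snord118 and Snord13. The median log2 change of the 23 was 0.26, with 15 above and 8 below 0. At 1.5-fold, 7 members were higher and 1 lower, against 5.42% and 5.31% of all features with at least 20 reads, 9.3% and 9.69% of those with fewer than 500 of them, and 19.3% and 17.6% of those without an annotated transcript. The median of all features with at least 20 reads was 0, and that of those without an annotated transcript 0.04.

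The box H/ACA class had 1 member with unique reads, Snora24, which in human cells guides pseudouridine formation in the small subunit RNA. It had 1436 reads in the cycloleucine library and 1104 in the untreated library, 346 and 313 RPKM, and a ratio of 1.10 (1.02 to 1.196). Unique reads gave 1.14. The table has no feature for its host Snhg8 over this position, although GENCODE places it within that gene.

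Of the 11 overlapping box H/ACA members, 5 lay above and 6 below 0, and none had an interval outside no change. Snora73a and Snora73b, copies of U17, an RNA known for precursor cleavage on the way to the small subunit, lie in Snhg3. Snora73a had 99 reads in the cycloleucine library and 91 in the untreated library, and Snora73b 145 and 102, with log2 changes of -0.11 and 0.27. The copies lay on opposite sides of 0, within their counting errors. Snora74a (U19), in Snhg4, was the best counted of the overlapping members, with 177 and 123 reads and a log2 change of 0.29 (-0.05 to 0.63). The 3 members in Snhg12, Snora16a, Snora44 and Snora61, were at 0.52, 0.44 and 0.03 and together had 177 and 122 reads, a ratio of 1.23 (0.973 to 1.56).

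Snora70, in the ribosomal protein gene Rpl10, was the 1 member at least 2-fold lower, where 1.87% of all features with at least 20 reads, 3.59% of those with fewer than 500 of them and 8.1% of those without an annotated transcript were. It had 7 reads in the cycloleucine library and 15 in the untreated library, a log2 change of -1.28, and its ratio of 0.396 had an interval of 0.137 to 1.03. The interval includes no change. The next lowest were Snora26, in the noncoding gene Dancr, at -0.64 with 24 and 32 reads, and Snora17, in Snhg7, at -0.52 with 18 and 22. Snora30 in Srcap and Snora52 in the ribosomal protein gene Rplp2 were at -0.11 and -0.23. The class summed to 2106 reads in the cycloleucine library and 1633 in the untreated library, a ratio of 1.10 (1.03 to 1.17), and its median log2 change was -0.04.

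**Figure D3:**
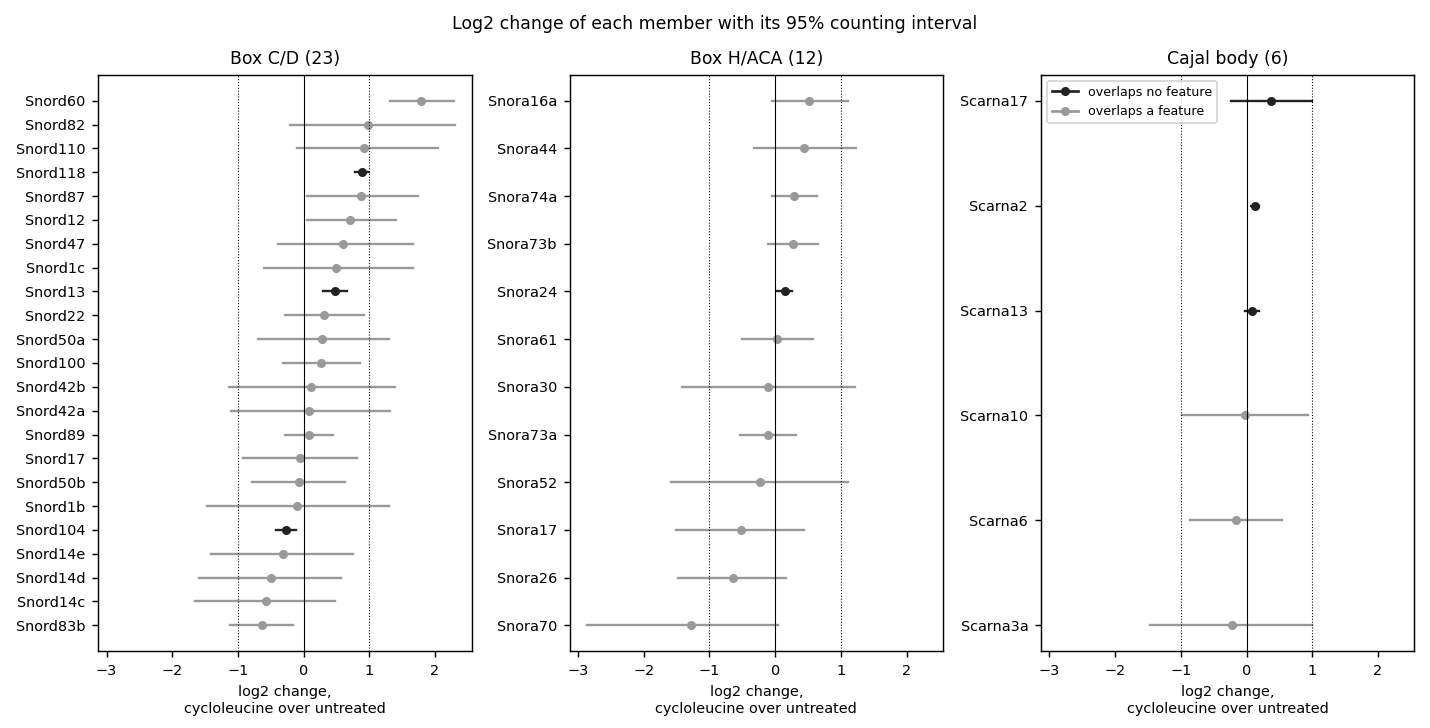
Log2 change of each of the 41 members, cycloleucine over untreated, by class, with bars for the 95% counting interval and dotted lines at 2-fold. Black points overlap no other feature of the table and grey points do. The intervals of Snord118 and Snord13 lie above 0 and that of Snord104 below, Snord60 is the 1 point above the upper dotted line and Snora70 the 1 point below the lower.

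Cajal body members differed little. Scarna2, a guide for the U2 spliceosomal RNA and the member with the most reads, had 6127 reads in the cycloleucine library and 4762 in the untreated library, 463 and 424 RPKM, and a ratio of 1.09 (1.05 to 1.13). Scarna13 (U93) had 1523 and 1220 reads, 173 and 164 RPKM, and a ratio of 1.06 (0.982 to 1.14). Scarna17 had 58 and 38 reads and a ratio of 1.296 (0.846 to 2.01), while its 38 and 19 unique reads gave 1.74 (0.978 to 3.19). These 3 overlap no feature and all lay above 0.

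The 3 overlapping Cajal body members all lay below 0 with intervals that include no change. Scarna10 (U85), in the condensin gene Ncapd2, had 22 reads in the cycloleucine library and 19 in the untreated library and a log2 change of -0.02. It is also overlapped by the gene model Gm28967, which had 26 and 19 reads. Scarna6 (U88), in the autophagy gene Atg16l1, had 38 and 36 reads and a change of -0.155, and Scarna3a, in the ubiquitin ligase gene Rfwd2, 13 and 13 and one of -0.23. The class summed to 7781 reads in the cycloleucine library and 6088 in the untreated library, a ratio of 1.085 (1.05 to 1.12), with Scarna2 holding 78.5% of them. Its median log2 change was 0.03 and no member reached 1.5-fold in total reads.

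Set side by side, the summed ratios were 1.39 for box C/D, 1.10 for box H/ACA and 1.085 for Cajal body members. Among members that overlap another feature they were 1.27 (1.15 to 1.42) for the 20 of box C/D, 1.08 (0.958 to 1.21) for the 11 of box H/ACA and 0.911 (0.646 to 1.29) for the 3 of Cajal bodies. Without Snord60 the box C/D value of these was 1.09 (0.972 to 1.22). The class ratios thus rested on a few members, and leaving out the highest ones, as here and above, lowers a ratio by the choice itself. Over all members, 24 lay above and 17 below 0, against 8597 and 8235 of all features with at least 20 reads.

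Each of the 34 overlapping members was set beside a gene that contains it, called its host here. There were 26 hosts, and for 32 members the annotation places the host on the same strand, while for Snora17 and Snora74a the strand of the host was not resolved. Per kilobase, member reads had a median of 1.67 times the host's intron reads, with 19 of 32 members above their host's introns, and 0.247 times the host's exon reads, with 3 above. The highest against introns were Snord50b in Snhg5, Snora74a in Snhg4 and Snord47 in Gas5, at 16.7, 15.4 and 13.9 times. Introns of Snhg5 had only 5 reads in the cycloleucine library and 4 in the untreated library, and those of Gas5 4 and 9. GENCODE places Snord50b and Snord47 within host exons, and against exons they stood at 0.79 and 0.076 times. Snora74a also lies within the gene model Gm28285 on the same strand. That model had 5454 intron reads in the cycloleucine library and 3430 in the untreated library, against 61 and 62 in Snhg4. Snora73a and Snora73b also lie within Rcc1 on the same strand, with 44367 and 31013 intron reads. The values of these 3 members thus depend on which gene is taken as host. The lowest against introns were Snora44, Snora16a and Snora61, all within exons of Snhg12, at 0.063, 0.104 and 0.116. Reads at or below the density of the host's introns cannot be told apart from reads of unspliced host RNA.

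Directions of hosts and members were set side by side. The member interval lay outside no change only in 1500012F01Rik, Rab26os, Rpl3 and Snhg6. With counting error that wide elsewhere, the values below cannot show whether members follow their hosts. Members and host introns lay on the same side of 0 in 10 of 21 hosts with at least 20 intron reads, and members and host exons in 13 of 26. Across hosts, Pearson's r between the log2 change of members and of host introns was -0.022 over 21 hosts, and 0.41 over the 20 other than Rab26os, so the value rests on that 1 host. With host exons it was -0.47 over 26 hosts and -0.11 without Rab26os. The points share both libraries and, in overlapping features, a pool of reads. Introns lay above 0 and members below in Atg16l1, Snhg7, Dancr, Ncapd2, Rfwd2, Snx5 and Srcap. In the first 3 of these, introns were at 0.69, 0.49 and 0.45 beside members at -0.16, -0.53 and -0.65. In Ncl, Nop56 and Snhg6 members and introns both lay above 0 while exons lay below. Of all these members, only that of Snhg6 had a counting interval outside no change. Ncl had 4617 intron reads in the cycloleucine library and 2739 in the untreated library (log2 0.52), Nop56 2418 and 1428 (0.52) and Snhg6 2699 and 1525 (0.59), and their exon reads were at -0.09, -0.49 and -0.14. In Gas5 and 1500012F01Rik, noncoding genes with nearly all reads in exons, host exons were at 0.35 and 0.45 beside members at 0.60 and 0.72 from reads. Among other hosts with nearly all reads in exons, Snhg1 was at 0.27 beside its member at 0.31, Snhg5 at -0.21 beside members at 0.05 and Hspa8 at 0.35 beside members at -0.47. Exons cover most of the span of these hosts, such as 3760 of 4118 bases in Gas5 and all 2929 in 1500012F01Rik. The members lie within these exons, so their reads may be among the exon reads.

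**Figure D4:**
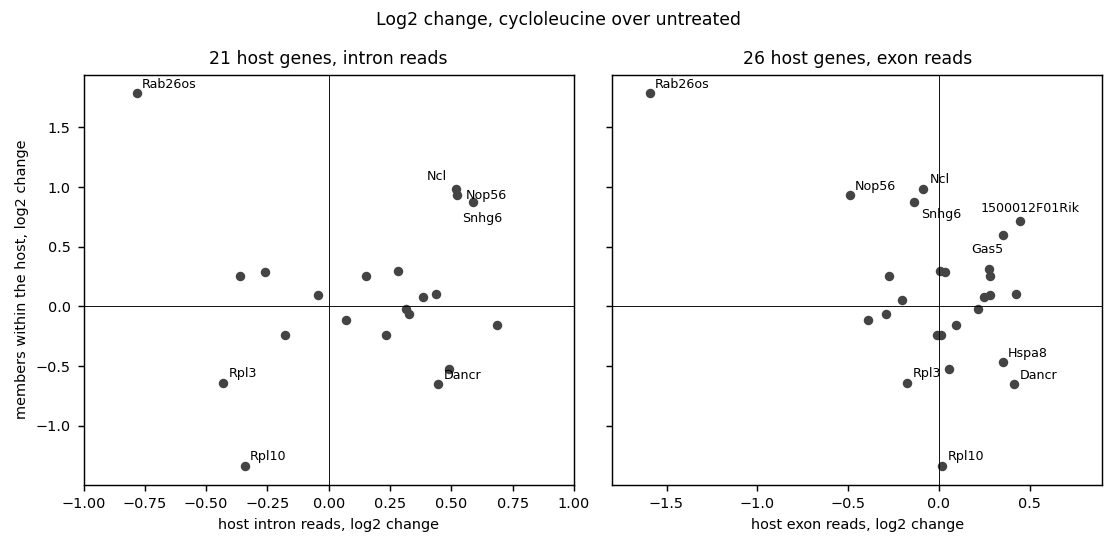
Log2 change of the summed reads of the members within each host (vertical) against that of the host's intron reads (left, 21 hosts) and exon reads (right, 26 hosts), cycloleucine over untreated, 1 library each. Rab26os, the host of Snord60, stands alone at the upper left of both panels, and Ncl, Nop56 and Snhg6 lie together at the upper right of the left panel.

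The genes of the proteins that bind, build and house these RNAs were measured in the same libraries, and 27 of 29 listed genes were measured, all but Coil and Taf9. None was 1.5-fold different, where 1.28% of all features with at least 1000 reads were that much higher and 0.697% that much lower. Of the 27, 9 lay above and 18 below 0, with a median of -0.07. Over all features with at least 20 reads, 8597 lay above and 8235 below, with a median of 0. All 4 core box C/D proteins lay below 0, with Nop56 at -0.49, Nop58 at -0.17, the methyltransferase fibrillarin (Fbl) at -0.07 and Nhp2l1 at -0.01. Fbl stood at 80.2 RPKM in the cycloleucine library and 83.9 in the untreated library, with 18.2% of its reads unique. Of the core box H/ACA proteins, Nop10 and the pseudouridine synthase gene Dkc1 were at 0.10 and 0.08, and Nhp2 and Gar1 at -0.02 and -0.16. Tgs1, which adds the further methyl groups of the cap of U3, U8 and spliceosomal RNAs, was at 0.02, with 1305 and 1095 gene reads. Phax, which carries such capped RNAs within and out of the nucleus, was at -0.01. Among assembly factors Shq1 was lowest at -0.26 and Znhit3 highest at 0.12, and among Cajal body and nucleolar genes Wrap53, which brings RNAs to Cajal bodies, was lowest at -0.31 and Ddx20 highest at 0.28.

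Below the threshold were 85 features, of which 21 had no read in either library and 64 had 1 to 19. Just inside it were Snord1b with 21 reads over both libraries, Snora52 and Snora70 with 22 each, and just outside Snord99 with 19 and Snora68, Snora78 and Snord88c with 17 each. The 4 RNAs of Rpl13a introns that respond to metabolic stress in other cells, Snord32a, Snord33, Snord34 and Snord35a, had 7 reads in the cycloleucine library and 7 in the untreated library over all 4. Both Snord116 features of the table, of the imprinted cluster active in neurons, had 0 reads. At 100 bases, 3 reads, the most a count of 0 allows, correspond to 0.939 RPKM in the cycloleucine library and 1.11 RPKM in the untreated library.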

How the data were processed

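The deposited table gave, per the file headers, total and uniquely placed read counts per feature, over genes, exons and introns, and RPKM values that the authors computed. For the 41 members, which have no annotated transcript, gene reads returned the deposited RPKM in 82 of 82 values within a share of 0.0001. The files use mm10, per the submitters' processing notes; the aligner, counting rule, annotation and strand setting are nowhere given in these sources. The RNA was isolated on RNeasy columns, which are known to hold short RNA poorly, and library fragments of 100 to 200 bp were selected, per the labels' protocols. Levels therefore describe what these steps left, and their part in the differences was not tested. The table had 0 columns of other libraries. Some sequences are not reported here.

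A log2 change is the log2 of the cycloleucine RPKM plus 0.1 over the untreated RPKM plus 0.1, which understates the change of low features. A ratio is of reads scaled by each library's total gene reads, with an exact (Clopper-Pearson) 95% interval of the share of reads in the cycloleucine library. Intervals and floors cover counting error only, and reads amplified by PCR are not independent molecules. With 1 library per group a size rule of 2-fold was used. Features overlap when they share a base in the table. A host is the shortest feature with annotated transcripts that contains a member and is not known to lie on the other strand. Names, strands and exons came from GENCODE M21, which matched all 41 symbols and the positions of 40. Members, lists and tests were chosen with earlier results of these data known. The rule for names took the 5 members per class with the most reads and the members next to the threshold. It also took the 5 highest and 5 lowest log2 changes among members with at least 100 reads and at least 50 percent unique reads. Members past 2-fold with at least 100 reads, the RNAs known for precursor cleavage, the listed protein genes and the hosts were named too. Other members were named after their values were seen, so that each of the 41 is accounted for. Python 3.11.15, pandas 2.3.3 and scipy 1.17.1 were used.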

Additional observations from a re-analysis of the deposited data

How the results depend on the processing

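No paired analysis was possible because there was only 1 library a group. The values without Snord118, Snord13 or Snord60 were chosen after seeing the data. Counts past 2-fold depended on the choices. Box C/D members at least 2-fold higher, 1 as given, were 17 with no read filter, 7 at 1.5-fold, and 0 from unique reads, with at least 50 percent unique reads or without Snord60; those lower, 0 as given, were 9 with no filter and 1 at 1.5-fold. Box H/ACA members lower, 1 as given, were 3 with no filter, 2 at 1.5-fold, and 0 with a pseudocount of 1 RPKM, from unique reads, with at least 50 or 100 reads, with at least 50 percent unique reads, or where the counting interval had to exclude no change; those higher, 0 as given, were 6 with no filter. Cajal body members lower, 0 as given, were 2 with no filter. The filters change which features enter, and unique reads leave 3 box C/D and 1 box H/ACA member with at least 20 reads. The box C/D summed ratio was 1.11 without Snord118 and 1.03 without it and Snord13. The other 114 of 133 alternatives of summary values stayed within the interval of the value given or, for counts, equal to it or within 1.5-fold of it. They include all 43 of class, list and host medians, whose interval is that of the middle members. The box H/ACA median, -0.04 as given, turned to 0.21 with at least 50 or 100 reads, and was 0.18 from unique reads and 0.14 with at least 50 percent unique reads, both from 1 member. The Cajal body median turned to -0.02 with no filter and that of assembly factors to 0.0063 from unique reads. All 130 alternatives of single members stayed within their counting intervals. Rescaling by the median ratio or a trimmed mean shifted every log2 change by 0.02.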
